A study of Mus musculus with 2 samples.

Results

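The 9 genes described here (Ctsk, Acp5, Mmp9, Oscar, Ocstamp, Atp6v0d2, Calcr, Nfatc1 and Clcn7) are known from osteoclasts, the bone-resorbing cells, and were chosen by name. Each had a row of its own among the 35798 rows of the deposited table. RNA was sequenced from adult C57BL/6 mouse bone marrow cells sorted as CD45-, CD31-, Ter119- and Nes-GFP+, a reporter gate for perivascular stromal cells. The JAK2 V617F library came from mice of genotype Nes-gfp;Mx1-cre;JAK2-V617F, and the control library came from littermates of genotype Nes-gfp. JAK2 V617F is the activating kinase mutation of myeloproliferative neoplasms. Mx1-cre is a recombinase driven by an interferon-responsive promoter that is active in blood-forming cells and in other cell types, and pIpC, a double-stranded RNA analogue that induces interferon, switches it on. Both groups were labelled as treated with pIpC, and cells were taken 6 weeks later. The labels give no Cre for the controls, so an effect of Cre and one of the mutation cannot be told apart. Each library was a pool of cells from 3 animals, with 1 library per genotype, so no value has a replicate error, no test between genotypes was possible, and each difference below is one between 2 pools.

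Osteoclasts form when monocyte-lineage precursors fuse into large cells with many nuclei. The precursors receive M-CSF (Csf1) through its receptor Csf1r and RANKL (Tnfsf11) through its receptor RANK (Tnfrsf11a), both ligands being made by stromal and osteoblast-lineage cells. RANK signalling, with co-stimulation through receptors such as OSCAR that pair with ITAM adaptors, switches on the transcription factor NFATc1. NFATc1 then drives genes for fusion and for resorption. The mature cell acidifies the bone surface with a vacuolar proton pump and a chloride transporter, and digests the exposed matrix with cathepsin K. Osteoclasts derive from the haematopoietic lineage, which a CD45- gate is meant to deplete, and several of the 9 genes are also transcribed elsewhere, for example Ctsk in fibroblast-like and periosteal cells and Mmp9 in neutrophils.

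Levels are given as FPKM, fragments scaled by transcript length and library size, which can be compared between genes. Differences are log2 ratios of the JAK2 V617F value over the control value after adding 1 FPKM to each. This scale understates the change of genes with low levels. A gene was counted as higher or lower where this ratio passed 2-fold, and only where it reached 1 FPKM in 1 or both libraries. The libraries held an estimated 6690000 fragments for JAK2 V617F and 5710000 for control, read from the steps in which low FPKM values fell. Stromal transcripts were present in both, with Cxcl12 at 694 FPKM in the JAK2 V617F library and 891 FPKM in the control library, and Lepr at 65.4 FPKM in JAK2 V617F and 84.8 FPKM in control. Nes, whose regulatory sequence drives the reporter, was at 3.00 FPKM in the JAK2 V617F library and 4.84 FPKM in the control library.

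The 9 genes did not move together. Of the 7 that reached 1 FPKM, Oscar alone was counted as higher with JAK2 V617F, 0 were counted as lower, and 6 lay within 2-fold. Over all 15425 rows at 1 FPKM or more, 13.7% were counted as higher and 11.3% as lower, and over 12537 protein-coding genes not sharing a row the shares were 10.1% and 8.76%. A count of 1 in 7 is near these shares. The median log2 ratio of the 7 genes was 0.11, with 4 above 0 and 3 below, beside -0.03 over all rows. The resorption enzymes Ctsk and Acp5 were at lower levels in the JAK2 V617F library, the receptors Oscar and Calcr at higher levels, and Ocstamp and Atp6v0d2 were near 0 FPKM in both.

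**Figure D1:**
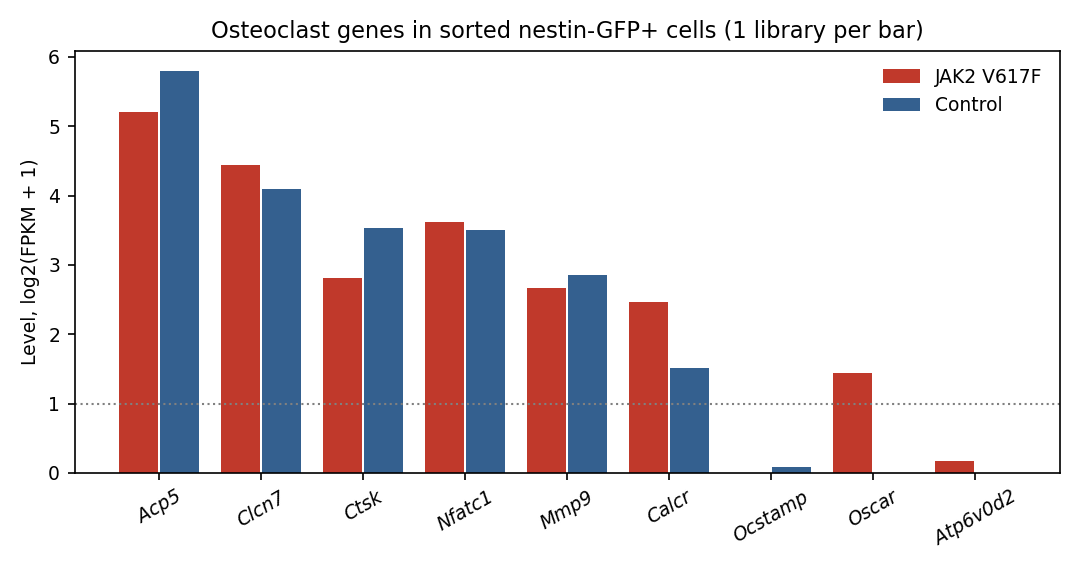
Level of each of the 9 osteoclast genes as log2(FPKM + 1), in the JAK2 V617F library (red, left bar) and the control library (blue, right bar), with 1 library per bar and no error. The dotted line marks 1 FPKM. Acp5 is the highest gene in both libraries (35.8 FPKM in JAK2 V617F, 54.6 FPKM in control), Oscar has no control bar because it is listed at 0, and Ocstamp and Atp6v0d2 stay under the line.

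Acp5 encodes tartrate-resistant acid phosphatase, the classical histochemical marker of osteoclasts (XLOC_032114, chromosome 9, 22126731 to 22135746, GRCm38 as for all loci here). It was at 35.8 FPKM in the JAK2 V617F library and 54.6 FPKM in the control library, a log2 ratio of -0.60. The JAK2 V617F level lay above 78.5%, and the control level above 84.7%, of protein-coding genes at 1 FPKM or more in the same library, the highest position of the 9 in each. At the length of its longest annotated coding transcript (1447 nt) these levels correspond to about 303 fragments in the JAK2 V617F library and 395 in the control library. The FPKM ratio was 0.655 with an exact (Clopper-Pearson) 95% counting interval of 0.561 to 0.761. The interval lies below 1, but such intervals cover counting error only, and amplified reads without molecular identifiers are not independent molecules. They do not measure the spread between animals or pools. The Acp5 exons overlap the gene 6530413G14Rik on the opposite strand, and the use of strand in the authors' quantification is not given in the sources used here, so reads of the 2 genes may not have been separated.

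Ctsk encodes cathepsin K, the collagen-degrading protease of the resorption pit (XLOC_019058, chromosome 3, 95499286 to 95509362). It was at 6.02 FPKM in the JAK2 V617F library and 10.6 FPKM in the control library, a log2 ratio of -0.72. It lay the furthest below 0 of the 9 genes and still within 2-fold. Ctsk has 1 annotated transcript, of 1512 nt, and its levels correspond to about 54 fragments in the JAK2 V617F library and 80 in the control library. The ratio was 0.570 with a counting interval of 0.400 to 0.823, which reaches past a 2-fold difference on its lower side. In these bulk pools, fewer cells of a type and less RNA per cell cannot be told apart.

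Mmp9 encodes gelatinase B, a matrix protease of osteoclasts and neutrophils (XLOC_016788, chromosome 2, 164940780 to 164955850). It was at 5.36 FPKM in the JAK2 V617F library and 6.22 FPKM in the control library, a log2 ratio of -0.18, which became -0.03 once the libraries had been given equal sums. With about 107 fragments in JAK2 V617F and 106 in control at the longest coding transcript, the ratio was 0.862 and its counting interval of 0.652 to 1.14 included 1. Clcn7 encodes the chloride-proton exchanger of lysosomes and of the osteoclast ruffled border (XLOC_012381, chromosome 17, 25133391 to 25162104). Its level was 20.6 FPKM in the JAK2 V617F library and 16.1 FPKM in the control library, a log2 ratio of 0.34. The ratio of 1.28 had a counting interval of 1.12 to 1.46, above 1 and below 2. Nfatc1, the gene of the transcription factor that RANK signalling switches on (XLOC_014412, chromosome 18, 80606205 to 80713071), was at 11.3 FPKM in the JAK2 V617F library and 10.3 FPKM in the control library. Its log2 ratio was 0.11, and 0.28 once the libraries had been given equal sums. The ratio of 1.09 had a counting interval of 0.925 to 1.28 that included 1. All counting intervals here are at the deposited scaling. Rescaling would shift them, so whether an interval includes 1 can depend on it.

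The receptors lay on the other side. Oscar encodes the osteoclast-associated immunoglobulin-like receptor, which binds collagen and is also found on other myeloid cells (XLOC_027908, chromosome 7, 3609813 to 3616157). It was at 1.71 FPKM in the JAK2 V617F library and was listed at 0 in the control library, so no fold is given. The JAK2 V617F value corresponds to about 19 fragments at the longest coding transcript (1829 nt), and 3 fragments in the control library would have been worth 0.319 FPKM. Oscar passed the filter through the JAK2 V617F library alone, so it could only pass in the direction in which it was counted. Calcr encodes the calcitonin receptor, through which calcitonin inhibits resorption (XLOC_025700, chromosome 6, 3685677 to 3764713). It was at 4.52 FPKM in the JAK2 V617F library and 1.86 FPKM in the control library, a log2 ratio of 0.95 that falls just short of 2-fold on the scale with 1 FPKM added. The FPKM ratio itself was 2.43, from about 108 fragments in JAK2 V617F and 38 in control, with a counting interval of 1.66 to 3.61. Calcr was counted as higher after rescaling to the same sum (log2 ratio 1.09), after rescaling to a median log2 ratio of 0 (1.03) and with 0.1 FPKM added in place of 1 (1.23).

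Ocstamp and Atp6v0d2 were almost without signal. Ocstamp, which encodes a membrane protein needed for precursor fusion (XLOC_018449, chromosome 2, 165393760 to 165400405), had a listed value of 0 with JAK2 V617F and 0.0618 FPKM in the control library, about 1 fragment. Atp6v0d2, which encodes the proton pump subunit enriched in osteoclasts and needed for fusion (XLOC_021661, chromosome 4, 19876841 to 19922605), was at 0.123 FPKM in the JAK2 V617F library, about 2 fragments, and was listed at 0 in the control library. Dcstamp, the other well-known fusion gene, was listed at 0 in both. Tnfrsf11a, the RANK gene, was at 0.0705 FPKM in the JAK2 V617F library and 0.0404 FPKM in the control library. Other genes known from osteoclasts did have signal, among them Calcr and Mmp9 above, Mmp9 being also a neutrophil gene. The integrin gene Itgb3 was at 13.9 FPKM in the JAK2 V617F library and 11.4 FPKM in the control library. Levels of genes known from osteoclasts were thus mixed, and which cells gave the signal was not tested. Whether a small number of osteoclasts would be detectable from Ocstamp or Atp6v0d2 at this depth was not tested either.

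**Figure D2:**
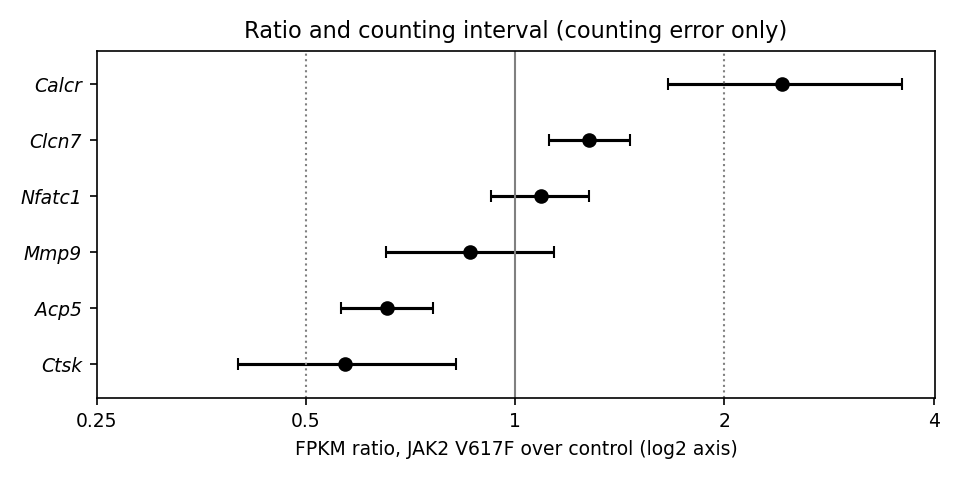
FPKM ratio of JAK2 V617F over control on a log2 axis for the 6 osteoclast genes at 1 FPKM or more in both libraries, with exact 95% intervals for counting error (bars), at the length of the longest annotated coding transcript. The solid line marks a ratio of 1 and the dotted lines 2-fold in each direction. At the deposited scaling, the bars of Ctsk and Acp5 lie below 1, those of Mmp9 and Nfatc1 include 1, and those of Clcn7 and Calcr lie above 1.

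The promoters of the genes furthest above and below a log2 ratio of 0 are shown because NFATc1, through the core GGAAA, is a known regulator of several of the group. RefSeq promoter sequences (GRCm38.p6) were matched for 5 of the 9 genes, with 9 start sites in all. The 250 bases upstream of a start site were searched on both strands for GGAAA, for the AP-1 motif TGANTCA and for CATGTG, an E-box form bound by MITF. Capitals mark the matches, read as TTTCC and CACATG where the motif is on the other strand. Where a gene has several start sites, the site at the 5′ end of the deposited locus is shown, and sequences read 5′ to 3′ on the strand of the gene.
Oscar, chr7:3616158-3616407, minus strand: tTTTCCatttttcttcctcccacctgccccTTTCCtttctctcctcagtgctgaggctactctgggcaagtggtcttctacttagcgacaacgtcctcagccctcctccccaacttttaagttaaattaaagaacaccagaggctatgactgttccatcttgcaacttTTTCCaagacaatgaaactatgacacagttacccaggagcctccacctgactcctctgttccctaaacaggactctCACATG
Calcr, chr6:3764714-3764963, minus strand: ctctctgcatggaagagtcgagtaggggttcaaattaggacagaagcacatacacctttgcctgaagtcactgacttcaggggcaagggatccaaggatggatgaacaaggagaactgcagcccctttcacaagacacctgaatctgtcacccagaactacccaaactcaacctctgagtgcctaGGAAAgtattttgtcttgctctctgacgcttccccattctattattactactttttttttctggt
Acp5, chr9:22135747-22135996, minus strand: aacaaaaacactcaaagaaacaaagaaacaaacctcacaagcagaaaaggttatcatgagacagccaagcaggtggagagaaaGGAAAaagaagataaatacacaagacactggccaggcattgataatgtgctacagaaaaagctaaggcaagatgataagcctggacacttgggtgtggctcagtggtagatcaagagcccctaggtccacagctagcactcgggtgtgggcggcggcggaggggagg
Ctsk, chr3:95498960-95499209, plus strand: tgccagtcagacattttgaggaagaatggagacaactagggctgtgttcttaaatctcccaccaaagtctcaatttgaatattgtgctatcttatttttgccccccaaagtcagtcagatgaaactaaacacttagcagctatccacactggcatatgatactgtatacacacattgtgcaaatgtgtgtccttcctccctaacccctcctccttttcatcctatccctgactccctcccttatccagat
The Oscar window held 3 matches to GGAAA and 1 to CATGTG, the Calcr and Acp5 windows 1 match each to GGAAA, and the Ctsk window none of the motifs. Of the 9 start sites of the 5 genes, 6 held GGAAA, 3 held CATGTG and 0 held TGANTCA. Over 32851 mouse promoter windows of the same length, 55.6% held GGAAA, 12.3% held CATGTG and 6.75% held TGANTCA, so GGAAA is found in most windows of this length. A match describes the letters of a window and is not evidence of binding.

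Each gene other than Oscar was set by FPKM beside related genes. Several of the 9 are the osteoclast-enriched form of a family with more widely expressed members. Acp2, set beside Acp5, is another acid phosphatase and not a paralogue of it. The contrast was widest for the proton pump. Atp6v0d1, the ubiquitous form of the d subunit, was at 45.7 FPKM in the JAK2 V617F library and 69.1 FPKM in the control library, while Atp6v0d2 was at 0.123 FPKM in the JAK2 V617F library and listed at 0 in the control library. Among the cathepsins, the level order of Ctsk and Ctss, a protease of antigen-presenting cells, was reversed between the libraries. In the JAK2 V617F library Ctss was at 8.10 FPKM, above Ctsk at 6.02 FPKM. In the control library Ctss was at 3.93 FPKM, below Ctsk at 10.6 FPKM. Ctsl, a lysosomal protease of most cells, was above both at 46.9 FPKM in the JAK2 V617F library and 47.5 FPKM in the control library.

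Mmp2, the gelatinase of stromal cells, was above Mmp9 in both libraries, at 25.1 FPKM in the JAK2 V617F library and 61.4 FPKM in the control library (log2 ratio -1.26). Acp2, the general lysosomal acid phosphatase, was at 18.7 FPKM in the JAK2 V617F library and 18.6 FPKM in the control library, below Acp5 in both. Calcrl, which encodes the receptor of CGRP and adrenomedullin, was at 13.5 FPKM in the JAK2 V617F library and 19.4 FPKM in the control library. It was thus above Calcr by 2.99-fold in the JAK2 V617F library and 10.4-fold in the control library. Of the NFAT genes, Nfatc3 had the highest level, at 43.5 FPKM in the JAK2 V617F library and 53.2 FPKM in the control library. Nfatc2 was at 3.06 FPKM in the JAK2 V617F library and 1.15 FPKM in the control library, and Nfatc4 at 3.00 FPKM in JAK2 V617F and 1.09 FPKM in control, both under Nfatc1. Clcn7 lay between Clcn3, at 37.6 FPKM in the JAK2 V617F library and 59.1 FPKM in the control library, and the other CLC exchangers Clcn4-2, Clcn5 and Clcn6, which ranged from 7.63 to 8.99 FPKM in the JAK2 V617F library and from 3.99 to 15.2 FPKM in the control library.

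**Figure D3:**
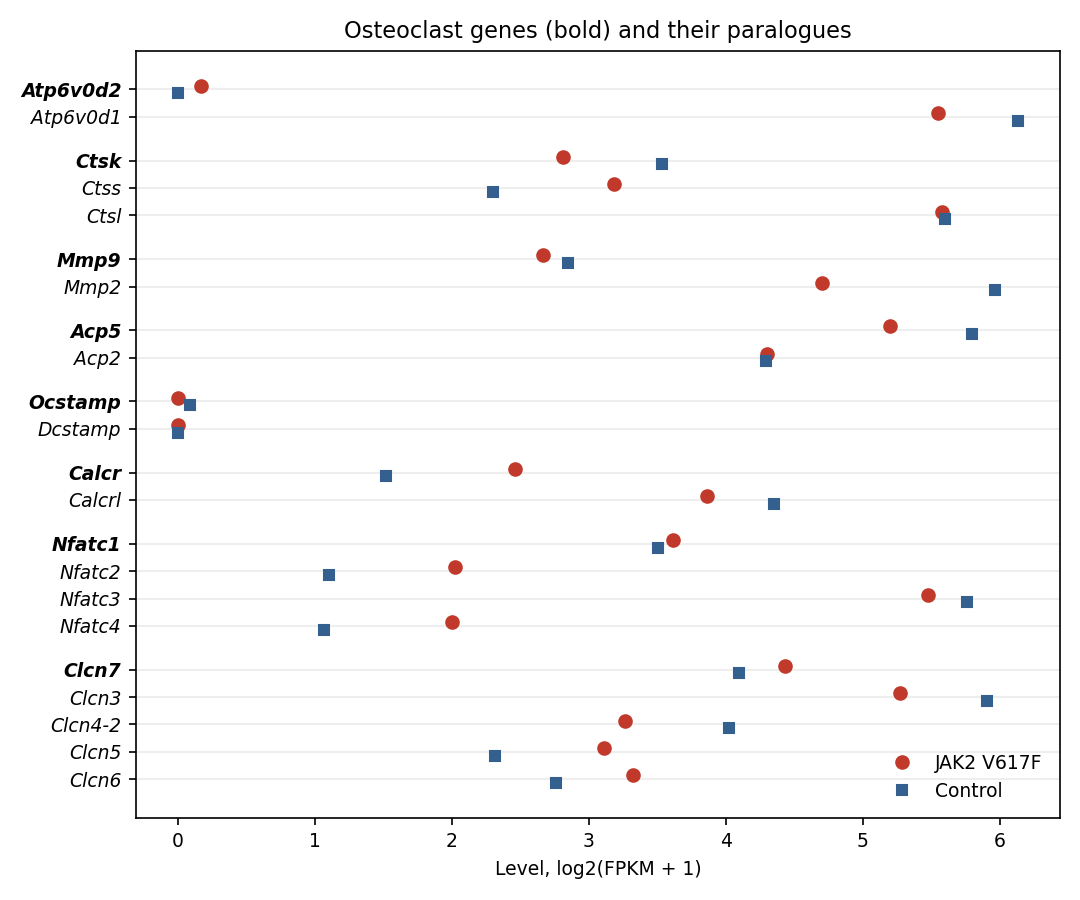
Level as log2(FPKM + 1) of each osteoclast gene other than Oscar (bold) and the genes set beside it. Red circles are the JAK2 V617F library and blue squares the control library, with 1 library per symbol. Acp2 is shown beside Acp5 as another acid phosphatase and is not a paralogue of it. Atp6v0d1 stands at 45.7 FPKM in JAK2 V617F and 69.1 FPKM in control, while Atp6v0d2 is at or near 0, and Ctsk and Ctss change order between the libraries.

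Ligand and hormone receptor genes known from osteoclast control were mostly at lower levels in the JAK2 V617F library, and their cell source was not tested. Of 12 such genes at 1 FPKM or more, 4 were counted as lower and none as higher, with a median log2 ratio of -0.67. That median was -0.40 with no filter, -0.42 at equal sums and -0.44 with 5 FPKM added. The 4 were the chemokines Ccl2 (1.17 FPKM in JAK2 V617F, 12.0 FPKM in control) and Ccl3 (2.38 FPKM in JAK2 V617F, 15.5 FPKM in control), the vitamin D receptor gene Vdr (15.4 FPKM in JAK2 V617F, 64.5 FPKM in control) and Bmp2 (4.30 FPKM in JAK2 V617F, 14.3 FPKM in control). Sema3a (2.27 FPKM in JAK2 V617F, 0.727 FPKM in control) was counted as higher after rescaling to equal sums and with 0.1 FPKM added. It passed the filter through the JAK2 V617F library alone, so that its log2 ratio could lie only above 0. The core ligands were within 2-fold. Csf1 was at 28.1 FPKM in the JAK2 V617F library and 47.8 FPKM in the control library (log2 ratio -0.75). RANKL (Tnfsf11) was at 1.32 FPKM in the JAK2 V617F library and 1.96 FPKM in the control library (-0.36). Its decoy receptor osteoprotegerin (Tnfrsf11b) was at 2.97 FPKM in the JAK2 V617F library and 5.68 FPKM in the control library (-0.75), so the ligand and its inhibitor both had the lower level in the JAK2 V617F library.

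On the receiving side, 16 of 18 genes for osteoclast receptors, adaptors and transcription factors reached 1 FPKM. Of these, 4 were counted as higher and 2 as lower in the JAK2 V617F library, and the median log2 ratio was 0.65. With 5 FPKM added, 0 were counted as higher and the median was 0.26. Higher were Csf1r (7.41 FPKM in JAK2 V617F, 2.49 FPKM in control), the ITAM adaptor gene Tyrobp (43.9 FPKM in JAK2 V617F, 19.8 FPKM in control), and Prdm1 (4.69 FPKM in JAK2 V617F) and Siglec15 (1.03 FPKM in JAK2 V617F), both listed at 0 in control. Prdm1, Siglec15 and, among the genes not counted, Mitf passed the filter through the JAK2 V617F library alone, so that their log2 ratios could lie only above 0. Lower were Bhlhe40 (7.41 FPKM in JAK2 V617F, 23.0 FPKM in control) and the NF-kappaB subunit gene Nfkb2 (3.25 FPKM in JAK2 V617F, 8.66 FPKM in control). Among 7 negative regulators of osteoclast formation, Id1 (17.4 FPKM in JAK2 V617F, 2.55 FPKM in control) and Id2 (6.996 FPKM in JAK2 V617F, 2.72 FPKM in control) were counted as higher and Nfkbie (2.62 FPKM in JAK2 V617F, 6.36 FPKM in control) as lower, with a median log2 ratio of -0.02. Under both rescalings the call for Nfkbie was lost and the median of these genes lay above 0.

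The wider machinery of acid secretion was detected in both libraries and differed little. None of 22 genes of the proton pump, carbonic anhydrase and ruffled border was counted as higher or lower, although 18 lay below 0 and the median log2 ratio was -0.28. The median became -0.19 after rescaling to a median log2 ratio of 0 and -0.11 at equal sums. Tcirg1, the pump subunit of osteoclast membranes, was at 34.9 FPKM in the JAK2 V617F library and 42.2 FPKM in the control library. Car2, which supplies the protons and is also abundant in red cells, was at 1364 FPKM in the JAK2 V617F library and 1745 FPKM in the control library. Car2 made up most of the summed level of the list, 2252 FPKM in JAK2 V617F and 2794 FPKM in control. Erythroid genes summed to 1450 FPKM in JAK2 V617F and 2905 FPKM in control, and the part of red cells in the Car2 level was not tested. The largest differences were those of the pump subunit Atp6v1f (13.5 FPKM in JAK2 V617F, 27.4 FPKM in control; counted as lower with 0.1 FPKM added) and of Ostm1, the partner of the Clcn7 protein (17.2 FPKM in JAK2 V617F, 31.9 FPKM in control). Of 13 other proteases and protease inhibitors, 3 were counted as lower and none as higher. Their median was -0.50 (-0.30 with no filter, -0.32 at equal sums). Ctss was counted as higher after rescaling to equal sums and with 0.1 FPKM added. The 3 counted as lower were Mmp2, the collagenase gene Mmp13 (144 FPKM in JAK2 V617F, 378 FPKM in control) and the inhibitor gene Timp1 (28.2 FPKM in JAK2 V617F, 76.9 FPKM in control). Of 11 fusion and adhesion genes, Adam8 (6.81 FPKM in JAK2 V617F, 2.36 FPKM in control) and Sirpa (25.8 FPKM in JAK2 V617F, 11.6 FPKM in control) were counted as higher, and Adam12 (7.99 FPKM in JAK2 V617F, 22.5 FPKM in control) and the integrin gene Itgav (15.3 FPKM in JAK2 V617F, 47.5 FPKM in control) as lower. The product of Itgav pairs with that of Itgb3, given above, on osteoclasts. The median of the 11 genes was 0.27, and 0.43 at equal sums.

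Markers of the cell types that share these genes also differed between the pools, and their part in the values of the 9 genes was not tested. Of 17 monocyte and macrophage genes, 10 reached 1 FPKM, and of these 5 were counted as higher with JAK2 V617F and none as lower. The 5 include Csf1r, which was also counted among the signalling genes above, so these lists overlap. Of the 10, 7 lay above 0 and 3 below, the latter including Cd163 (1.71 FPKM in JAK2 V617F, 2.63 FPKM in control). The median log2 ratio of the 10 was 1.04, which became 0.05 with no filter. Of the 5, C1qb, C1qc and Cd14 passed the filter through the JAK2 V617F library alone, so that their log2 ratios could lie only above 0. Among the 5 counted as higher were C1qb (4.20 FPKM in JAK2 V617F, 0.233 FPKM in control), Cd68 (13.2 FPKM in JAK2 V617F, 3.14 FPKM in control) and C1qc (3.75 FPKM in JAK2 V617F, 0.869 FPKM in control). The summed level of the list was 249 FPKM in the JAK2 V617F library and 272 FPKM in the control library, most of it Lyz2 (157 FPKM in JAK2 V617F, 207 FPKM in control), and C1qa, Vsig4 and Marco were listed at 0 in both. Of 14 neutrophil genes at 1 FPKM or more, 2 were counted as higher, Mmp8 (13.1 FPKM in JAK2 V617F, 2.59 FPKM in control) and Retnlg (61.6 FPKM in JAK2 V617F, 18.0 FPKM in control). Counted as lower were 3, among them Ltf (9.01 FPKM in JAK2 V617F, 24.1 FPKM in control) and Ngp (182 FPKM in JAK2 V617F, 450 FPKM in control). The summed neutrophil level was 2717 FPKM in the JAK2 V617F library and 2629 FPKM in the control library. Of 10 pan-leukocyte genes, Cd48 (9.18 FPKM in JAK2 V617F, 3.89 FPKM in control) and Cd52 (33.3 FPKM in JAK2 V617F, 15.8 FPKM in control) were counted as higher and none as lower, with a median of 0.40 and summed levels of 647 FPKM in JAK2 V617F and 541 FPKM in control.

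Of 14 osteoblast-lineage genes at 1 FPKM or more, 13 lay below 0 and 5 were counted as lower, with a median log2 ratio of -0.95. Chondrocyte genes had a median of 1.28 (8 of 12 counted as higher and 1 as lower). With 5 FPKM added this median was 0.88, with 5 counted as higher and 0 as lower. Matn3 (higher) and Ihh (lower) each passed the filter through 1 library alone, which fixed the direction of each. Erythroid genes had a median of -0.81 (3 of 9 lower) and mesenchymal stromal genes -0.30 (1 of 12 lower), which became -0.12 at equal sums.

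**Figure D4:**
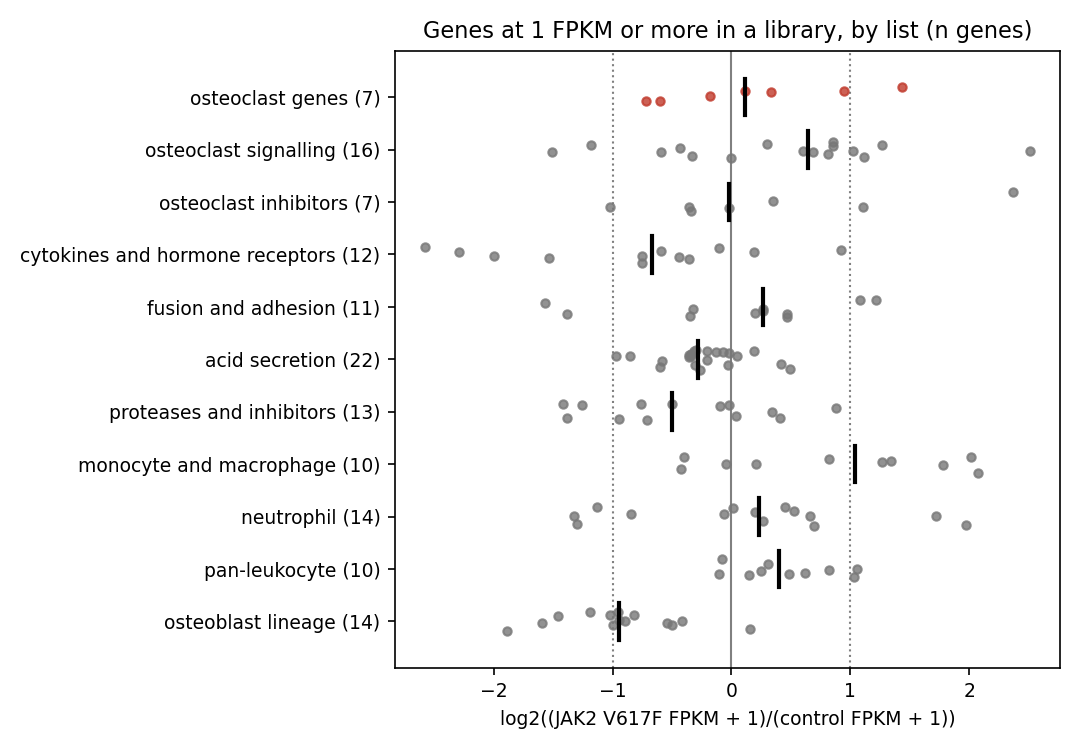
Log2 ratio of JAK2 V617F over control for each gene at 1 FPKM or more in a library, by list, with the number of genes in brackets. Each point is 1 gene, the black bar is the median of the list, and dotted lines mark 2-fold. The osteoclast genes (red) lie on both sides of 0 with a median of 0.11, the cytokine and osteoblast lists lie mostly below 0, and the monocyte and macrophage list has a median of 1.04, which is 0.05 with no filter.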

How the data were processed

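RNA from 2 sorted pools was measured, 1 per genotype. An input of 2-3 ng of RNA was amplified, per the labels' protocols, with the Ovation RNA-Seq System before library preparation, which can add noise to low transcripts. TopHat2 2.0.7, Bowtie2 2.0.6, Cufflinks and cutadapt 1.2.1 on build GRCm38 are named in the submitters' processing notes. The authors deposited 1 FPKM value per gene and library. For strand use, annotation release and between-library scaling, the authors' choice is not given in the sources used here. Of 35798 rows, 401 name several genes and were not used for list members, which left out Ctsd. A further gene of the list of negative regulators is not reported here.

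The members and the 13 other lists, with a pseudocount of 1 FPKM, a filter of 1 FPKM and a call at 2-fold, were chosen with earlier results of these data known. Named were all members and the genes set beside them, core pathway genes and, of other lists, mainly the 4 with the largest log2 ratio. Further genes called in the same list were named after their values were seen, and for context lists fewer or none are given. Fragments were estimated from steps in the FPKM of 5569 genes with 1 transcript in GENCODE vM21, after subtracting 180 nt from the length, an offset picked from 31 values for the sharpest step. Of low genes, 79.8% in the JAK2 V617F and 77.3% in the control library lay within 0.2 of a whole fragment, where the value of 1 fragment was set from these same genes. Intervals for genes with several transcripts were added after seeing the data. The calls and the step estimate were tested on simulated data with counting noise and large changes in well-expressed genes. Calls near 2-fold or in low genes, amplification noise and genes with several transcripts were not covered. Python 3.11.15, pandas 2.3.3, NumPy 2.4.6 and SciPy 1.17.1 were used.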

Additional observations from a re-analysis of the deposited data

How the results depend on the processing

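The log2 ratios of the 7 osteoclast genes at 1 FPKM or more kept their sign under each of the 6 alternatives in which they had a value, and 36 of 40 recomputed values also kept their side of 2-fold. The exceptions were Calcr, counted as higher under 3 of the alternatives as given above, and Oscar, whose log2 ratio was 0.42 with 5 FPKM added. Alternatives that change only the filter leave the log2 ratio of a gene as it was. The values under them, which are among the 40, were therefore the same by construction. The count of genes higher by 2-fold, 1 as reported, was 2 with 0.1 FPKM added, 2 after rescaling to the same sum and 2 after rescaling to a median log2 ratio of 0. It was 0 with 5 FPKM added and 0 at a filter of 5 FPKM, which removes Oscar and Calcr. That filter also turned the median of the 9-gene list to -0.18. Rescaling to the same sum added 0.18 to every log2 ratio before the pseudocount and rescaling to the median added 0.10. The macrophage median was 0.56 with 5 FPKM added, 0.51 at the filter of 5 FPKM and 0.05 with no filter. The chondrocyte median was 0.88 with 5 FPKM added. The median of the negative regulators turned to 0.15 at equal sums and to 0.068 at a median log2 ratio of 0. With 5 FPKM added, the count of higher genes was also 0 in the signalling, fusion and pan-leukocyte lists and 1 in the macrophage list. With no length offset the counting interval of Ctsk was 0.386 to 0.838. No paired analysis was possible because each genotype has 1 library, and for the same reason no library could be left out. Depth leaves Ocstamp and Atp6v0d2 at 2 fragments or fewer, where no difference can be read.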
